A study of Mus musculus with 14 samples.

Results

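The enzymes that build haem and the proteins that bring iron to them were followed across the sorted fractions of FDCPmix, a mouse multipotent haematopoietic progenitor line that depends on interleukin-3 and that the labels trace to bone marrow. The 9 genes were Alas2, Alad, Uros, Urod, Cpox, Ppox and Fech, which encode enzymes of the pathway from its first step to its last, and Slc25a37 and Tfrc, which encode iron importers. They were found on the array through the accession that each probe carries, and 11 of 41174 probes matched them, with 2 probes each for Fech and Slc25a37 and 1 for every other gene. All 9 were among the 32465 genes tested.

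The arrays measured RNA from 5 groups of cells of this line, kept in Fisher's medium with horse serum and interleukin-3 conditioned medium, with no genotype, strain or drug distinguishing them. Cells were stained with antibodies and sorted into Kit+Gr1-Sca1hi (3 arrays), Kit+Gr1-Sca1lo (3 arrays), Kit-Gr1- (3 arrays) and Gr1+ cells (3 arrays), and an unfractionated sample was measured on 2 arrays. Kit is the receptor for stem cell factor, Gr1 is an antigen of myeloid cells and Sca1 is a surface antigen of primitive cells. The design text calls the samples biological replicates of 1 cell line. It does not say whether they came from separate cultures, so p-values measure the spread between these samples.

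Haem is made from glycine and succinyl coenzyme A. The pathway starts in mitochondria with aminolevulinate synthase, runs through the cytosol from Alad to Urod, and returns to mitochondria for Cpox, Ppox and Fech, the last of which inserts iron into the ring. Alas2 is the form of the first enzyme used by red cell precursors, and Alas1 is the form found in most other cells. Iron bound to transferrin enters through the receptor encoded by Tfrc, and mitoferrin 1, the product of Slc25a37, carries it into mitochondria. Red cell precursors are known for high demand on all of these steps, because each haemoglobin chain carries a haem.

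Promoter sequences from RefSeq (GRCm38.p6) were searched in 10 windows of 7 of the 9 genes. No window of Fech or Slc25a37 was searched. Windows on a chromosome were left out, so this does not show that the reference holds none for these genes. Each window is the 250 bases before an annotated transcription start and was searched on both strands for AGATAA and TGATAA (core sequences bound by GATA factors), CCACACCC (bound by Klf1) and TGACTCA (bound by AP-1 and Nfe2 dimers). The 4 windows below belong to Alas2, whose sorted fractions overlapped, to Alad and Cpox, the genes called as different, and to Urod, the enzyme between them. Capitals mark a match, and all are written 5′ to 3′ on the gene's strand.

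Alas2 chrX:150547167-150547416, plus strand: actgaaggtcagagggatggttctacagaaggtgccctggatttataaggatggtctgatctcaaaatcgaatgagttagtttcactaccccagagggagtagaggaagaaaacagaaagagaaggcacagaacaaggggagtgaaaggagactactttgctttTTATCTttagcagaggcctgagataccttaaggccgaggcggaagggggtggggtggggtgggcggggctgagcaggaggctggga
Alad chr4:62520064-62520313, minus strand: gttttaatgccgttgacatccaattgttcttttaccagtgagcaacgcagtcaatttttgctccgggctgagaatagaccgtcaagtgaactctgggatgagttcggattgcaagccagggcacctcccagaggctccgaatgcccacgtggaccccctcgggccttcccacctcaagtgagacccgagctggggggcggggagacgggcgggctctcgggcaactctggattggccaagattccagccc
Urod chr4:116994414-116994663, minus strand: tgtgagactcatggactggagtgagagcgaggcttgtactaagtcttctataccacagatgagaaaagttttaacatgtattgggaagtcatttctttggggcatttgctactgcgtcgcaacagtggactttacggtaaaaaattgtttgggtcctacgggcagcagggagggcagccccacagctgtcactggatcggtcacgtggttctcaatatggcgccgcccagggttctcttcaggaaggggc
Cpox chr16:58669958-58670207, plus strand: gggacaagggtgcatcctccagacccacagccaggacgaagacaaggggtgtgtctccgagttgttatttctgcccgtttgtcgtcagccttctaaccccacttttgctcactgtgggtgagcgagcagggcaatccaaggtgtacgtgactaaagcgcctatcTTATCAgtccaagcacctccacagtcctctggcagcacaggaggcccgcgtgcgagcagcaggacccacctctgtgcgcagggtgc

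The Alas2 window held AGATAA on the opposite strand, read here as TTATCT, from 86 to 81 bases before the start. The Cpox window held TGATAA on the opposite strand, read as TTATCA, also from 86 to 81 bases before the start. A window of the second Uros start held TGATAA from 68 to 63 bases before it, and the other 7 windows searched held none of the 4 motifs. Of 32851 mouse windows of the same length, 9.99% held AGATAA, 7.94% held TGATAA, 3.20% held CCACACCC and 4.46% held TGACTCA. These matches describe the letters in the window and were not tested for binding.

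Levels below are the log2 processed signal of a probe minus the 75th percentile of its array, so 0 is the 75th percentile and 1 unit is a factor of 2. They compare arrays for 1 gene and not 1 gene with another. Between 79.5% and 99.5% of spots were well above background, and all 11 probes of the 9 genes were well above background on all 14 arrays with no saturated spot. On 4 arrays the signals spanned a narrower range than on the others. These were unfractionated replicate 1 and replicate 3 of Kit+Gr1-Sca1hi, Kit+Gr1-Sca1lo and Gr1+, with interquartile ranges of 1.78 to 3.42 log2 units against 4.17 to 4.92 on the other 10. No Kit-Gr1- array was among them. A gene was called where limma gave a Benjamini-Hochberg adjusted p under 0.05 over all genes tested and at least a 2-fold difference.

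Alad and Cpox rose in Kit-Gr1- cells over Gr1+ cells, by 6.10-fold and 3.43-fold. Both calls were lost with array medians as the scale and when Kit-Gr1- replicate 1, Kit-Gr1- replicate 3 or Gr1+ replicate 2 was left out, where the differences were 2.91 and 2.07, 2.45 and 1.59, 2.54 and 1.87, and 2.52 and 1.75 on the log2 scale. In this bulk RNA, fewer cells that express a gene and less RNA per cell cannot be told apart. Alas2, read by 1 dim probe whose signal lay below the median of every array, overlapped in all 4 sorted fractions, with no difference called. Urod, Fech and Tfrc were also highest on average in Kit-Gr1- cells, by less than the fit could call. Ppox and Slc25a37 had their highest mean in Gr1+ cells, and neither difference was called.

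**Figure D1:**
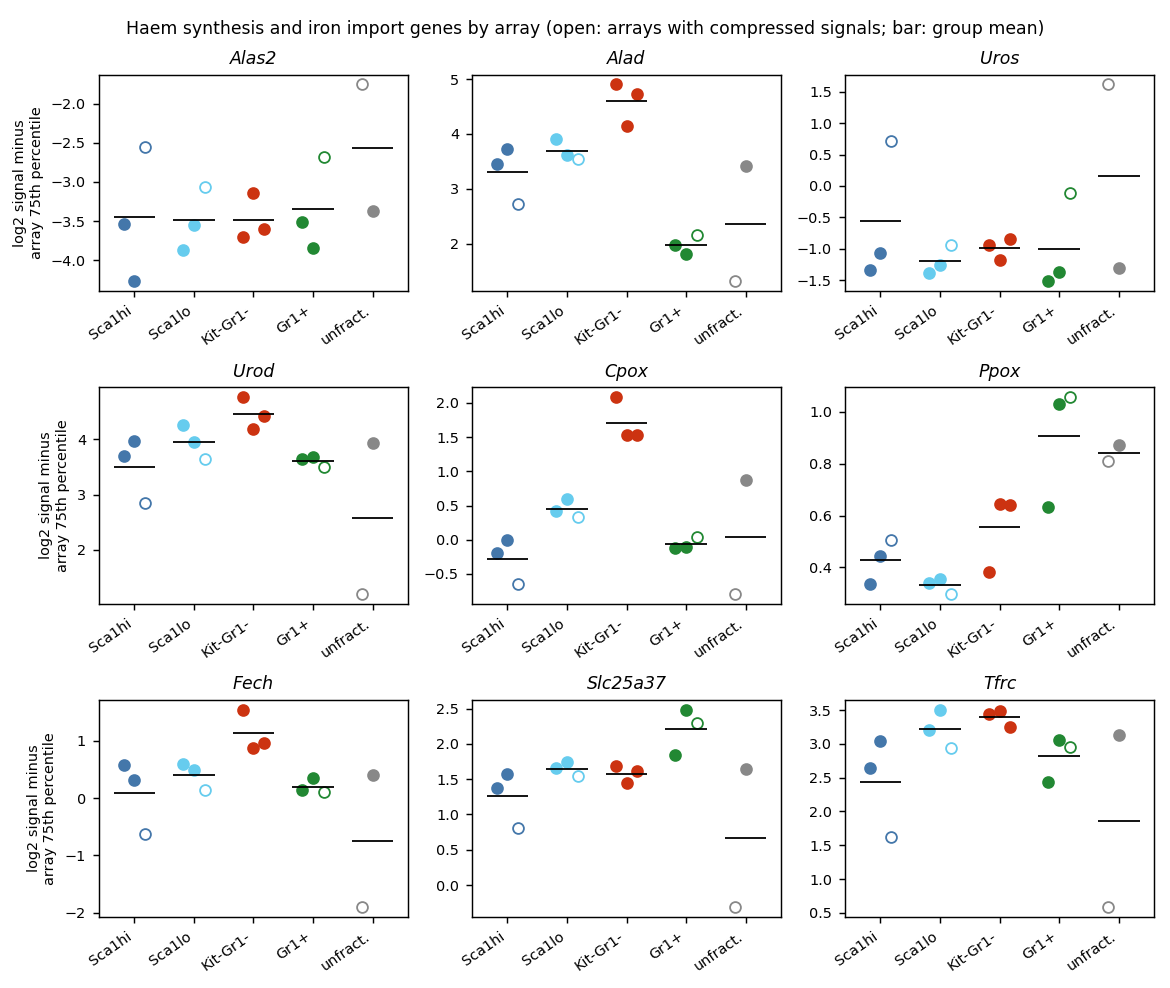
Level of each of the 9 genes on each of the 14 arrays (vertical axis, log2 processed signal minus the array's 75th percentile) by group (horizontal axis), with a bar at the group mean and open circles for the 4 arrays with a narrow signal range. Alad and Cpox separate Kit-Gr1- from Gr1+ arrays completely, and Alas2 overlaps in all 4 sorted fractions; the vertical scale differs between panels.

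Alas2, the red cell form of the first enzyme, read -3.53, -4.27 and -2.55 in Kit+Gr1-Sca1hi cells and -3.87, -3.55 and -3.06 in Kit+Gr1-Sca1lo cells. In Kit-Gr1- cells it read -3.70, -3.15 and -3.61, in Gr1+ cells -3.51, -3.84 and -2.68, and in the unfractionated samples -1.75 and -3.37. The sorted fractions overlapped fully, and in each of the 4 groups that held an array with a narrow signal range that array gave the highest value. The 4 sorted means spanned 0.14 log2 units, the smallest span among the 9 genes. The probe of Alas2 was dim, with a processed signal from 40 to 98 on the 9 sorted arrays of full signal range. The medians of those arrays ran from 129 to 253. Whether a dim probe hides a change was not tested. The difference of Kit-Gr1- from Kit+Gr1- cells was -0.01 ± 0.49 (SE; 95% interval -1.08 to 1.05; adjusted p = 0.992), so a rise of 2-fold lies inside the interval. The difference of Kit-Gr1- from Gr1+ cells was -0.14 ± 0.57, with an interval of -1.37 to 1.09. The sign of both depended on the setting, between -0.25 and 0.52 in the first and between -0.39 and 0.36 in the second.

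Alpha globin, the partner of haem in haemoglobin, was called higher in Kit-Gr1- than Kit+Gr1- cells on the same arrays. The probe annotated to Hba-a1, which near-identical copies of the gene may share, read 4.45, 3.50 and 4.21 in Kit-Gr1- cells. It ran from -0.25 to 0.64 in the 6 Kit+Gr1- samples and from -0.37 to 1.05 in Gr1+ cells. Kit-Gr1- arrays stood above all of these, and the rise over Kit+Gr1- cells was 3.90 ± 0.43 (adjusted p = 0.00349 by limma). In that comparison Hba-a1 was called and Alas2 was not, and the difference between the genes was not tested. The probe of Hbb-bt, a beta globin gene, averaged 8.29 in Kit-Gr1- cells, 7.44 in Kit+Gr1-Sca1hi cells and 7.42 in Kit+Gr1-Sca1lo cells. Hbb-bt was not called in that comparison.

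Alad, the second enzyme, joins 2 molecules of aminolevulinate into porphobilinogen. It read 3.44, 3.72 and 2.73 in Kit+Gr1-Sca1hi cells and 3.91, 3.62 and 3.55 in Kit+Gr1-Sca1lo cells. It read 4.90, 4.15 and 4.72 in Kit-Gr1- cells and 1.97, 1.81 and 2.16 in Gr1+ cells. Every Kit-Gr1- array lay above every other sorted array and every Gr1+ array below. The unfractionated samples read 1.32 and 3.41. Kit-Gr1- cells exceeded Gr1+ cells by 2.61 ± 0.47 (6.10-fold, adjusted p = 0.0117 by limma). Within slides 1, 2 and 3 the difference was 2.93, 2.34 and 2.56. A slide is a set of arrays that share a barcode, and its number is only a name. Each difference within a slide, here and below, sets 1 array against 1 array. Alad in Kit-Gr1- cells differed from Kit+Gr1- cells by 1.10 ± 0.41 (adjusted p = 0.906), and Gr1+ from Kit+Gr1- cells by -1.51 ± 0.41 (adjusted p = 0.0901). The second of these passed the test when the 2 unfractionated arrays were left out of the fit, at -1.51 with adjusted p = 0.00107, and when either was.

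Uros closes the linear tetrapyrrole into a ring. It read -1.34, -1.06 and 0.71 in Kit+Gr1-Sca1hi cells, -1.39, -1.26 and -0.94 in Kit+Gr1-Sca1lo cells, -0.94, -1.17 and -0.85 in Kit-Gr1- cells and -1.52, -1.38 and -0.11 in Gr1+ cells. The unfractionated samples read 1.62 and -1.31. The fractions overlapped, and the highest value of each of the 4 groups that hold an array of narrow signal range came from that array. No Uros difference was called, the one between Kit-Gr1- and Gr1+ cells being 0.02 ± 0.67.

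Urod, the last enzyme in the cytosol, removes carboxyl groups from the ring. It read 3.70, 3.97 and 2.85 in Kit+Gr1-Sca1hi cells and 4.26, 3.95 and 3.64 in Kit+Gr1-Sca1lo cells. In Kit-Gr1- cells it read 4.76, 4.19 and 4.43, in Gr1+ cells 3.64, 3.68 and 3.50, and in the unfractionated samples 1.20 and 3.93. Kit-Gr1- arrays lay above all Gr1+ arrays, and 1 of them lay below the highest Kit+Gr1-Sca1lo array. The difference of Kit-Gr1- from Gr1+ cells was 0.85 ± 0.56 (adjusted p = 0.956) and from Kit+Gr1- cells 0.73 ± 0.49 (adjusted p = 0.906).

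Cpox, the first enzyme after the pathway re-enters mitochondria, had the clearest step in Kit-Gr1- cells. It read 2.08, 1.53 and 1.53 there, against -0.11, -0.11 and 0.03 in Gr1+ cells. Kit+Gr1-Sca1hi cells read -0.19, 0.00 and -0.65 and Kit+Gr1-Sca1lo cells 0.43, 0.60 and 0.33, while the unfractionated samples read -0.79 and 0.88. All Kit-Gr1- arrays lay above all other sorted arrays, and all Kit+Gr1-Sca1lo arrays lay above all Kit+Gr1-Sca1hi and Gr1+ arrays. Kit-Gr1- cells exceeded Gr1+ cells by 1.78 ± 0.36 (3.43-fold, adjusted p = 0.0226 by limma), with 2.20, 1.64 and 1.49 within slides 1, 2 and 3. They differed from Kit+Gr1- cells by 1.63 ± 0.31 (3.09-fold, adjusted p = 0.131), which was not called. Without the 2 unfractionated arrays that difference was 1.63 with adjusted p = 0.00148, and leaving out either of them also brought the call. Without the 4 arrays of narrow range it was 1.51 with adjusted p = 0.00624. Kit+Gr1-Sca1hi differed from Kit+Gr1-Sca1lo cells by -0.73 ± 0.36 (unadjusted p = 0.0605 in limma, not called), and within slides 1 and 4 by -0.62 and -0.98.

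Ppox oxidises the ring to protoporphyrin. It read 0.34, 0.45 and 0.51 in Kit+Gr1-Sca1hi cells, 0.34, 0.35 and 0.30 in Kit+Gr1-Sca1lo cells, 0.38, 0.65 and 0.64 in Kit-Gr1- cells and 0.63, 1.03 and 1.06 in Gr1+ cells. The unfractionated samples read 0.81 and 0.87. Gr1+ arrays lay above all Kit+Gr1- arrays and overlapped Kit-Gr1- arrays. The difference of Gr1+ from Kit+Gr1- cells was 0.53 ± 0.17 (adjusted p = 0.221), the highest of the sorted means being in Gr1+ cells, in contrast to Alad, Urod, Cpox and Fech.

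Fech, ferrochelatase, places iron in protoporphyrin. Its standing probe, the brighter of the pair on average, read 1.54, 0.88 and 0.97 in Kit-Gr1- cells and 0.15, 0.35 and 0.11 in Gr1+ cells. It read 0.58, 0.31 and -0.63 in Kit+Gr1-Sca1hi cells, 0.59, 0.50 and 0.14 in Kit+Gr1-Sca1lo cells and -1.90 and 0.40 in the unfractionated samples. Kit-Gr1- arrays lay above all other sorted arrays. The second probe read 1.03, 0.35 and 0.65 in Kit-Gr1- cells, again above all other sorted arrays, whose values ran from -0.79 to -0.00. Kit-Gr1- differed from Gr1+ cells by 0.93 ± 0.48 (adjusted p = 0.782) on the first probe and by 1.03 ± 0.28 (adjusted p = 0.123) on the second, both from a limma fit of all probes. The difference from Kit+Gr1- cells was 0.88 ± 0.41 on the first probe and 0.88 ± 0.25 on the second, with adjusted p = 0.907 and 0.780 in that fit. Neither probe gave a call.

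Slc25a37, mitoferrin 1, carries iron into mitochondria. It read 1.84, 2.48 and 2.29 in Gr1+ cells and 1.69, 1.44 and 1.62 in Kit-Gr1- cells. It read 1.38, 1.57 and 0.81 in Kit+Gr1-Sca1hi cells, 1.65, 1.74 and 1.55 in Kit+Gr1-Sca1lo cells and -0.31 and 1.64 in the unfractionated samples. Gr1+ arrays lay above all other sorted arrays, and Kit-Gr1- arrays lay among the Kit+Gr1- arrays. The difference of Gr1+ from Kit+Gr1- cells was 0.75 ± 0.35 (adjusted p = 0.582), and that of Kit-Gr1- from Gr1+ cells was -0.62 ± 0.40 (adjusted p = 0.956). The second probe ran only from -1.02 to -0.47 over all 14 arrays and gave 0.12 ± 0.18 and -0.31 ± 0.21 for the same comparisons. The probes differed in sign for Kit-Gr1- against Kit+Gr1- cells, at 0.13 ± 0.35 and -0.19 ± 0.18.

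Tfrc, the transferrin receptor, read 2.64, 3.05 and 1.62 in Kit+Gr1-Sca1hi cells and 3.21, 3.50 and 2.94 in Kit+Gr1-Sca1lo cells. It read 3.44, 3.48 and 3.26 in Kit-Gr1- cells, 2.44, 3.05 and 2.96 in Gr1+ cells and 0.59 and 3.13 in the unfractionated samples. Kit-Gr1- arrays lay above the Gr1+ arrays and overlapped the Kit+Gr1-Sca1lo arrays. Tfrc in Kit-Gr1- cells differed from Gr1+ cells by 0.58 ± 0.54 (adjusted p = 0.956) and from Kit+Gr1- cells by 0.57 ± 0.47 (adjusted p = 0.906). Kit+Gr1-Sca1hi differed from Kit+Gr1-Sca1lo cells by -0.78 ± 0.54, and the lowest sorted array was Kit+Gr1-Sca1hi replicate 3, of narrow signal range.

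In the order of the sorted means, Kit-Gr1- cells came first for Alad, Urod, Cpox, Fech and Tfrc, and Kit+Gr1-Sca1lo cells second for the same 5 genes. Kit-Gr1- means stood above Kit+Gr1-Sca1lo means by 0.90 for Alad (pooled SD 0.31), 1.26 for Cpox (pooled SD 0.25) and 0.72 for Fech (pooled SD 0.30), with no overlap of arrays. For Urod and Tfrc these neighbours overlapped, at 0.51 and 0.18. Alad had a second clear step down to Gr1+ cells, 1.32 below the Kit+Gr1-Sca1hi mean (pooled SD 0.38). For Cpox the second step, from Kit+Gr1-Sca1lo to Gr1+ cells, was 0.51 (pooled SD 0.11) with no overlap. For Slc25a37 the only neighbours that did not overlap were Gr1+ and Kit+Gr1-Sca1lo cells, 0.56 apart (pooled SD 0.24). For Alas2, Uros and Ppox all neighbours overlapped.

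**Figure D2:**
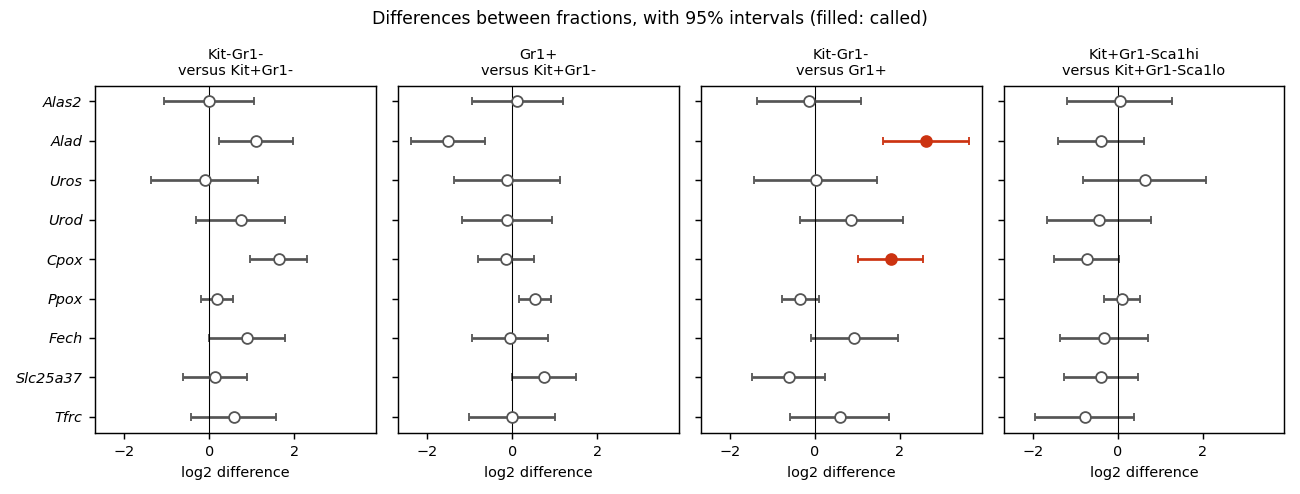
Difference between fractions for each gene (horizontal axis, log2) with its 95% interval from the limma fit, in 4 comparisons; filled points were called. Alad at 2.61 and Cpox at 1.78 in Kit-Gr1- against Gr1+ cells are the filled points, and Alas2 lies near 0 in all 4 panels.

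For Kit-Gr1- against Kit+Gr1- cells, 0 of 9 genes were called by limma and 2 had an unadjusted p under 0.05, Alad and Cpox. Of all genes tested, 0.0678% were called. In 7 of 9 genes the difference was above 0. The median was 0.57 against -0.25 over all genes tested, and it ran from 0.23 to 0.95 over the settings tried. Without the 4 arrays of narrow range, none of them Kit-Gr1-, these medians were 0.32 and -0.09. Arrays did not overlap, with Kit-Gr1- higher, for Alad, Cpox and Fech, 3 of 9 genes, against 3.18% of all genes. With the 12 sorted arrays alone 1 of 9 genes was called, Cpox, against 0.288% of all genes called higher. Without the 4 arrays of narrow range Cpox was again the called gene, against 0.349%. These scaled differences move with the median of all genes, which scaling by array medians brought to 0.07 and the median of the 9 genes to 0.89.

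For Gr1+ against the same Kit+Gr1- cells, 0 of 9 genes were called by limma and 3 had an unadjusted p under 0.05, Alad, Ppox and Slc25a37. Of all genes tested, 2.02% were called, 447 higher and 208 lower (174 and 29 with array medians). Arrays did not overlap for Ppox and Slc25a37 with Gr1+ higher, against 5.66% of all genes, and for Alad with Gr1+ lower, against 3.75%. The median of the 9 genes was -0.05, and that of all genes was also -0.05. With the 12 sorted arrays alone Alad was called as lower, 1 of 9 genes, against 1.32% of all genes called lower. This comparison and the one before share their 6 Kit+Gr1- arrays.

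For Kit-Gr1- against Gr1+ cells, 2 of 9 genes were called, Alad and Cpox, both higher in Kit-Gr1- cells, against 0.579% of all genes called higher and 1.61% called either way. The difference was above 0 in 6 of 9 genes, with a median of 0.58 against -0.21 over all genes tested. Arrays did not overlap for 5 genes with Kit-Gr1- higher (Alad, Urod, Cpox, Fech and Tfrc) against 13.5% of all genes, and for Slc25a37 with Kit-Gr1- lower against 13.3%. With array medians as the scale the adjusted p was 0.310 for Alad and 0.501 for Cpox. The call of Cpox alone was lost with quantile normalization (1.59, adjusted p = 0.279), in the deposited unscaled values (1.73, adjusted p = 0.200), without Kit-Gr1- replicate 2 (1.87), without Gr1+ replicate 1 (1.75) and without Gr1+ replicate 3 (1.82). Without the 4 arrays of narrow range, where 2.94% of all genes were called higher, both calls held.

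For Kit+Gr1-Sca1hi against Kit+Gr1-Sca1lo cells, 0 of 9 genes were called by limma and 0 had an unadjusted p under 0.05. Over all genes the counts were 0 called and 59 with an unadjusted p under 0.05. Cpox was the gene whose arrays did not overlap, with Kit+Gr1-Sca1hi lower, against 1.55% of all genes. The median of the 9 genes was -0.39 against -0.01 over all genes. Without Kit+Gr1-Sca1hi replicate 3, an array of narrow range, these medians were -0.11 and -0.19. Without the 4 arrays of narrow range they were -0.19 and -0.09.

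**Figure D3:**
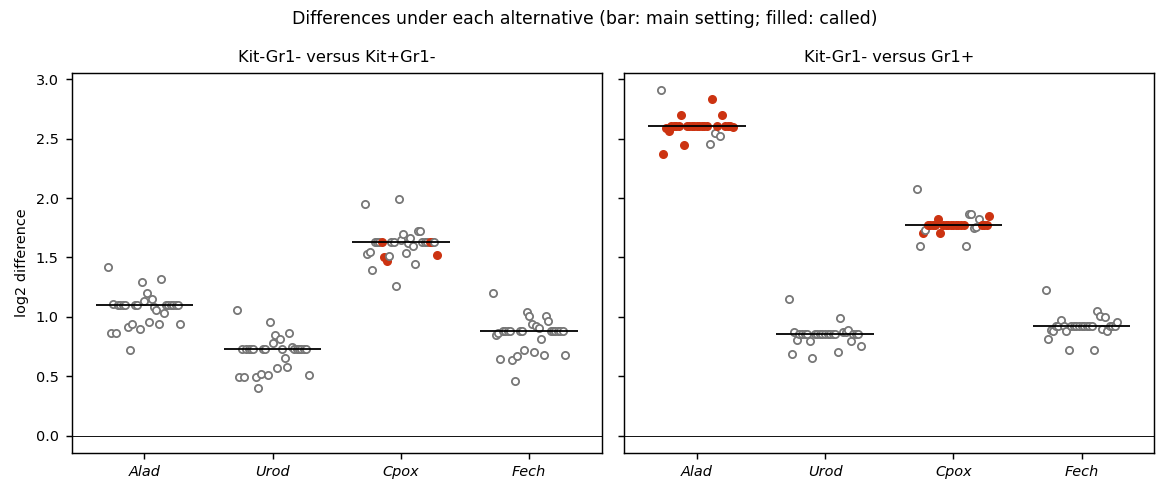
Differences of Alad, Urod, Cpox and Fech (vertical axis, log2) under each alternative setting, for Kit-Gr1- against Kit+Gr1- cells and against Gr1+ cells; the bar is the value reported and filled points were called. All points lie above 0, and those of Alad against Gr1+ cells run from 2.37 to 2.91.

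Alas1, the general form of the first enzyme, showed the widest difference of the haem enzymes. It read 5.07, 5.85 and 5.86 in Gr1+ cells, 0.95, 2.27 and 1.50 in Kit+Gr1-Sca1hi cells, 1.23, 2.89 and 1.84 in Kit+Gr1-Sca1lo cells and 1.02, 2.44 and 2.20 in Kit-Gr1- cells. The unfractionated samples read 0.25 and 4.84. Gr1+ arrays lay above all other sorted arrays, whose groups overlapped each other. Alas1 rose in Gr1+ over Kit+Gr1- cells by 3.82 ± 0.77 (14.1-fold, adjusted p = 0.0184 by limma), and its second probe gave 3.94 ± 0.66. The difference of Kit-Gr1- from Gr1+ cells was -3.71 ± 0.88 and just missed the threshold (adjusted p = 0.0598), while with the 12 sorted arrays it was called (adjusted p = 0.000354), as it was without the 4 arrays of narrow range, with array weights, with quantile normalization, in unscaled values and over the mean of its probes. Its second probe passed the threshold in a limma fit of all probes (-3.77 ± 0.76, adjusted p = 0.0248). The call against Kit+Gr1- cells was lost with array medians (3.85, adjusted p = 0.197), and against either Kit+Gr1- fraction alone. It was also lost without Gr1+ replicate 1, 2 or 3 (4.08, 3.69 and 3.68), without Kit+Gr1-Sca1hi replicate 1 (3.66) and without Kit+Gr1-Sca1lo replicate 1 (3.63). Gr1+ cells thus held the highest sorted levels of Alas1 and the lowest of Alad, which acts on its product.

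The rest of the pathway was taken from lists of 73 genes, of which 68 were tested. None of the 68 was called for Kit-Gr1- against Kit+Gr1- cells by limma, with 6 at an unadjusted p under 0.05, and 46 differences were above 0. For Gr1+ against Kit+Gr1- cells 3 of 68 were called, all higher, against 2.02% of all genes called either way. That count became 7 higher and 1 lower with the 12 sorted arrays, where 4.32% of all genes were called, and 7 higher and 2 lower without the 4 arrays of narrow range, where 7% were. For Kit-Gr1- against Gr1+ cells 2 of 68 were called, both lower in Kit-Gr1- cells, against 1.61% of all genes. It became 6 higher and 4 lower with the 12 sorted arrays, where 4.08% of all genes were called, and 9 higher and 5 lower without the 4 arrays, where 6.33% were. Array weights gave 7 higher and 1 lower, and 6 higher and 4 lower, in these comparisons. With those weights 2185 and 1950 of all 32465 genes tested were called. Leaving out either unfractionated array gave the counts of the 12 sorted arrays. Between the Kit+Gr1- fractions 0 were called, with 1 at an unadjusted p under 0.05. The median differences were 0.18, -0.00, 0.11 and -0.17 in these 4 comparisons, in the order given.

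The genes called with all 14 arrays, other than Alas1, were an iron exporter and a regulator of iron uptake. Slc40a1, ferroportin, read 1.50, 2.45 and 1.44 in Gr1+ cells and from -2.33 to -1.48 on the other 9 sorted arrays. It rose in Gr1+ over Kit+Gr1- cells by 3.59 ± 0.42 (adjusted p = 0.00108) and was lower in Kit-Gr1- than Gr1+ cells by the difference of -3.58 ± 0.48 (adjusted p = 0.00202). Hfe, which binds the transferrin receptor, read -0.40, 0.18 and 0.14 in Gr1+ cells and from -2.48 to -1.43 on the other sorted arrays. It rose in Gr1+ over Kit+Gr1- cells by 1.97 ± 0.26 (adjusted p = 0.00211) and differed between Kit-Gr1- and Gr1+ cells by -2.33 ± 0.31 (adjusted p = 0.00183). The call of Slc40a1 against Gr1+ cells was lost with array medians, at -3.29. Those of Hfe were lost in unscaled values, at 1.78 and -2.37.

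Tfr2, a second transferrin receptor, read 0.91, 1.13 and 0.89 in Gr1+ cells and from 1.70 to 2.93 on the other sorted arrays. It was not called, at -1.46 ± 0.38 (adjusted p = 0.0792) for Gr1+ against Kit+Gr1- cells, and it was called in that comparison with the 12 sorted arrays. Steap3, which reduces iron in the endosome, differed by -0.28 ± 0.51 in Kit-Gr1- against Kit+Gr1- cells, and Slc11a2, which moves that iron to the cytosol, by 0.86 ± 0.34. Fth1, the ferritin heavy chain, differed by 0.20 ± 0.98. None of the 3 was called in any of the 4 comparisons with all 14 arrays. Slc11a2 differed by 1.28 ± 0.40 in Kit-Gr1- against Gr1+ cells (adjusted p = 0.203) and was called there with the 12 sorted arrays (adjusted p = 0.00310), without the 4 arrays of narrow range and with array weights.

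Of 13 genes of mitochondrial transport, 9 had differences above 0 in Kit-Gr1- against Kit+Gr1- cells and 7 against Gr1+ cells. Abcb10, an inner membrane transporter that partners mitoferrin 1, read 0.54, -0.04 and 0.50 in Kit-Gr1- cells and from -1.24 to -0.61 on the other sorted arrays. Its difference from Kit+Gr1- cells of 1.16 ± 0.28 (adjusted p = 0.378) was not called, and with the 12 sorted arrays alone it was (adjusted p = 0.0236). Slc25a38, the glycine carrier for the first step, read 1.49, 1.38 and 1.75 in Kit-Gr1- cells and from 0.55 to 1.16 on the other sorted arrays, a difference of 0.57 ± 0.28 (adjusted p = 0.906). In this list 0 of 13 genes were called in any of the 4 comparisons with all 14 arrays. With the 12 sorted arrays Abcb10 and Abcb6 were called in Kit-Gr1- against Gr1+ cells and Mpc1 in Gr1+ against Kit+Gr1- cells. Arrays did not overlap for 3 of the 13 genes in Kit-Gr1- against Kit+Gr1- cells, with Kit-Gr1- higher, against 3.18% of all genes. Against Gr1+ cells they did not overlap for 4 genes with Kit-Gr1- higher and 3 with Kit-Gr1- lower, against 13.5% and 13.3%. The iron-sulfur list, which matters here because ferrochelatase holds such a cluster, had 0 of 15 genes called in any comparison with all 14 arrays. In Kit-Gr1- against Gr1+ cells 12 of its 15 differences were above 0, 9 without overlap against 13.5% of all genes, and 1 at an unadjusted p under 0.05. Glrx5, a glutaredoxin of cluster assembly, differed by 1.14 ± 0.60 there (adjusted p = 0.867). It was called with quantile normalization, in unscaled values, with the 12 sorted arrays, with array weights and without the 4 arrays of narrow range. Bola3 was called there with array weights and without the 4 arrays, and Lyrm4 without the 4 arrays in Gr1+ against Kit+Gr1- cells.

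Genes that degrade haem did not show a call either. Hmox1, haem oxygenase, differed by 1.63 ± 0.62 in Gr1+ against Kit+Gr1- cells (adjusted p = 0.354) and was called there with the 12 sorted arrays. Blvrb, a biliverdin reductase abundant in red cells, differed by 1.24 ± 0.45 in Kit-Gr1- against Kit+Gr1- cells (adjusted p = 0.906). In this list 0 of 8 genes were called in any of the 4 comparisons with all 14 arrays, and without the 4 arrays of narrow range Hmox1 and Blvrb were called in Kit-Gr1- against Gr1+ cells.

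**Figure D4:**
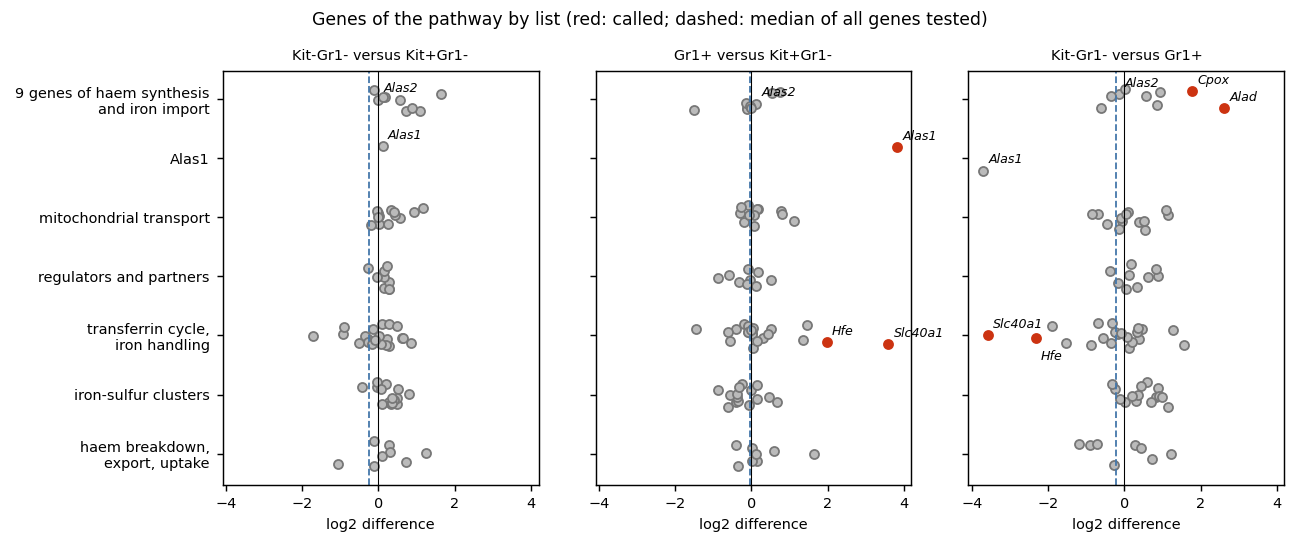
Differences of the 9 genes, of Alas1 and of other pathway genes by list (horizontal axis, log2) in 3 comparisons; red points were called and the dashed line is the median of all genes tested. Alas1, Hfe and Slc40a1 lie far to the right in Gr1+ against Kit+Gr1- cells, and Alad and Cpox to the right in Kit-Gr1- against Gr1+ cells.

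Markers of other cells moved with these fractions, and their part in the results above was not tested. Red cell markers were higher in Kit-Gr1- than Kit+Gr1- cells for 5 of 11 genes called (Gata1, Epor, Hba-a1, Kel and Aqp1) and than Gr1+ cells for 7 of 11. Of all genes tested, 0.0678% were called in the first of these comparisons and 0.579% were called higher in the second. The mean level of the 11 ran from 0.60 to 1.27 in Kit-Gr1- arrays, from -1.83 to -0.64 in Kit+Gr1- arrays and from -2.50 to -1.44 in Gr1+ arrays. Slc4a1, a late red cell membrane gene, was not called, at -0.21 against Kit+Gr1- cells. Gata1, a transcription factor of the red cell and megakaryocyte lineages, read 2.50, 2.03 and 2.47 in Kit-Gr1- cells and from -0.47 to 0.76 on the other sorted arrays. Neutrophil markers rose in Gr1+ over Kit+Gr1- cells for 7 of 10 genes, eosinophil markers for 5 of 6 and monocyte markers for 3 of 5. In that comparison 2.02% of all genes were called either way. Megakaryocyte markers were called higher in Kit-Gr1- than Kit+Gr1- cells for 1 of 6 genes, against 0.0678% of all genes called. Their mean level ran from 1.83 to 2.45 in Kit-Gr1- arrays and from 0.31 to 1.30 in Kit+Gr1- arrays. Mast cell and basophil markers were called for 0 of 8 in that comparison, with 2 at an unadjusted p under 0.05 and a mean level from 1.54 to 2.59 against 0.65 to 1.53. Their mean level was from 1.96 to 3.07 in Gr1+ arrays. For Gr1+ against Kit+Gr1- cells 1 of these 8 genes was called, as higher, and 5 had an unadjusted p under 0.05 by limma. Megakaryocyte markers were called higher in Kit-Gr1- than Gr1+ cells for 3 of 6 genes, against 0.579% of all genes. Mast cell markers were called there for 0 of 8, with 3 at an unadjusted p under 0.05. Genes of dividing cells gave 0 calls of 11 in all 4 comparisons and 0 at an unadjusted p under 0.05. Their median was 0.54 in Kit-Gr1- against Gr1+ cells, and 10 of the 11 differences there were above 0. Arrays did not overlap for 7 of these 11 genes, with Kit-Gr1- higher, against 13.5% of all genes. No lymphoid marker of 5 was called, and 0 had an unadjusted p under 0.05.

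The genes of the gate were checked too. Kit differed by -2.20 in Kit-Gr1- from Kit+Gr1- cells and was called lower. In Gr1+ cells Kit averaged 0.62, as against 0.35 in Kit+Gr1-Sca1hi and 0.33 in Kit+Gr1-Sca1lo cells, so its RNA was not lower there. Ly6c1, which encodes a protein that Gr1 antibodies can bind, rose by 6.73 in Gr1+ over Kit+Gr1- cells. Ly6a, which encodes Sca1, differed by 2.31 between Kit+Gr1-Sca1hi and Kit+Gr1-Sca1lo cells without a call, and it rose by 4.14 in Gr1+ over Kit+Gr1- cells.

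Genes whose pattern was most like those of Alad, Cpox and Fech, the genes whose sorted means spanned at least 1 log2 unit, were ranked by Pearson r over the 9 sorted arrays of full signal range, among 3809 genes that span as much. These arrays share a platform and a cell line and fall into 4 fractions, so r describes the order of fractions. For Alad they were Ubxn2a (r = 0.991), Tex9 (0.990) and Gmpr (0.990), at 0.978, 0.971 and 0.982 over all 12 sorted arrays. For Cpox they were Klf1, Ufsp1 and Rfesd (0.982, 0.981 and 0.971), of which Rfesd kept 0.974 over 12 arrays while Klf1 came to 0.681 and Ufsp1 to 0.513. For Fech they were Tmem131, Traf5 and 4921504E06Rik (0.968, 0.963 and 0.958), at 0.887, 0.713 and -0.298 over 12 arrays. The lower values over 12 arrays mark likeness that does not extend to the arrays of narrow range.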

How the data were processed

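Per the labels' protocols, 150 ng of Trizol-extracted RNA was labelled with Cy3 and hybridised to 1-colour arrays. Per the file headers, Agilent Feature Extraction (version 10.1.1.1) produced the spot files, and the authors deposited each spot's processed intensity, already corrected for background. The deposited series matrix holds log2 values equal to the log2 of that intensity. Here, control spots and spots marked as outliers were left out, each array's 75th percentile of the log2 intensity was subtracted, spots of a probe were averaged and probes well above background on at least 3 arrays were kept. The brightest kept probe on average stood for a gene. Accessions were named through RefSeq tables (GRCm38.p6), which gave a symbol to 23374 of 41174 probes, and the array design names build mm8, so no probe coordinates are given. All 14 arrays entered 1 limma fit (3.58.1, R 4.3.3) of 5 groups with 9 residual degrees of freedom, two-sided, adjusted over all genes by Benjamini-Hochberg. The mean of both Kit+Gr1- groups served as 1 side of 2 comparisons. Code was tested on simulated data. The genes and lists were chosen with earlier results of these data known, and named genes are the 9 genes, 10 listed pathway genes, called list genes and up to 3 called markers a list. Further names (Tfr2, Slc4a1, Hbb-bt, Glrx5, Bola3, Lyrm4, Abcb6, Mpc1 and 2 more red cell markers) were chosen after their values were seen. Some genes of the lists are not reported here. The number of arrays limits the precision, and all groups share 1 estimate of the spread, to which the 2 unfractionated arrays add. Without them the SE of the Cpox difference of Kit-Gr1- from Kit+Gr1- cells was 0.18, and with them 0.31. For Alad in Gr1+ against Kit+Gr1- cells it was 0.23 and 0.41.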

Additional observations from a re-analysis of the deposited data

How the results depend on the processing

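In 29 planned settings and 2 added after seeing the data (outlier spots kept; slide as a block without the 4 arrays of narrow range), Alad and Cpox were higher in Kit-Gr1- than in Kit+Gr1- and Gr1+ cells in every setting. The number of the 9 genes called in Kit-Gr1- against Kit+Gr1- cells went from 0 to 1 with the 12 sorted arrays, without the 4 arrays, with array weights, and with slide as a block without the 4 arrays. In Gr1+ against Kit+Gr1- cells it went from 0 to 1 in the same settings, with quantile normalization, in the deposited unscaled values and with slide as a block. In Kit-Gr1- against Gr1+ cells it went from 2 to 0 with array medians and to 1 with quantile normalization and in unscaled values. Leaving out 1 array gave 0 to 1, 0 to 1 and 0 to 2 calls; the 1 came without either unfractionated array, which left 1 unfractionated array assumed to vary like the other groups. Calls over all genes, at 22, 655 and 522, became 110, 1349 and 1274 with the 12 sorted arrays, 143, 2048 and 1850 without the 4 arrays, 779, 2185 and 1950 with array weights, 343, 2210 and 2026 with slide as a block without the 4 arrays, and 19, 203 and 192 with array medians; leaving out 1 array gave 0 to 111, 124 to 1355 and 157 to 1287. Quantile normalization gave 12 higher and 1 lower in the first comparison, against 18 and 4, and unscaled values gave 10 and 3. The fit against Kit+Gr1-Sca1lo cells alone called 0 and 420 genes in the first pair of comparisons, and against Kit+Gr1-Sca1hi cells alone 17 and 344.

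Small differences changed sign, and the cause was not tested. In Kit-Gr1- against Kit+Gr1- cells Alas2 became 0.31 with array medians, 0.52 with quantile normalization, 0.32 without the 4 arrays, 0.34 with array weights, 0.31 with slide as a block, 0.34 with that block without the 4 arrays and 0.0054 against Kit+Gr1-Sca1lo cells alone. Uros became 0.22, 0.28, 0.19, 0.23, 0.25 and 0.21 in these settings, quantile normalization apart. Ppox became -0.058 in unscaled values. Slc25a37 became -0.025 with quantile normalization, -0.11 in unscaled values, -0.029 over the mean of its probes, -0.0061 without the 4 arrays, -0.026 with array weights, -0.034 with slide as a block, -0.033 with that block without the 4 arrays and -0.066 against Kit+Gr1-Sca1lo cells. In Gr1+ against Kit+Gr1- cells Alas2 became -0.064 in unscaled values, -0.024 with array weights and -0.0021 with slide as a block without the 4 arrays. Uros became 0.21 with slide as a block and 0.19 against Kit+Gr1-Sca1lo cells. Against Kit+Gr1-Sca1hi cells alone Urod became 0.10, Cpox 0.22, Fech 0.11 and Tfrc 0.38. Fech became 0.039 with quantile normalization and Tfrc 0.021 with array medians. In Kit-Gr1- against Gr1+ cells Alas2 became 0.16, 0.35, 0.19, 0.36 and 0.34 with array medians, quantile normalization, without the 4 arrays, with array weights and with slide as a block without the 4 arrays, and Uros -0.032 in unscaled values. Between the Kit+Gr1- fractions Alas2 became -0.095, -0.25 and -0.19 with array medians, quantile normalization and without the 4 arrays, Ppox -0.037 with array medians and Fech 0.016 with array weights.

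With 1 array left out, Alas2 ran from -0.22 to 0.21 in Kit-Gr1- against Kit+Gr1- cells, from -0.21 to 0.37 in Gr1+ against Kit+Gr1- cells, from -0.39 to 0.19 in Kit-Gr1- against Gr1+ cells and from -0.41 to 0.45 between the Kit+Gr1- fractions. Uros ran from -0.30 to 0.21, from -0.57 to 0.20, from -0.24 to 0.46 and from -0.0096 to 1.02 in the same order. Fech ran from -0.22 to 0.077 in Gr1+ against Kit+Gr1- cells and from -0.57 to 0.037 between the Kit+Gr1- fractions, and Tfrc from -0.21 to 0.18 in Gr1+ against Kit+Gr1- cells.

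The replicate number as a block left the calls among the 9 genes at 0, 0, 2 and 0, with 31, 801 and 675 calls over all genes in the first 3 comparisons. With that block Alas1 was called in Kit-Gr1- against Gr1+ cells (-3.71, adjusted p = 0.00512), and Tfr2 in Gr1+ against Kit+Gr1- cells. Same-numbered arrays deviated together with r from -0.23 to 0.87, above 0.1 in 14 of 18 pairs. Among Kit+Gr1-Sca1hi, Kit+Gr1-Sca1lo and Gr1+ arrays r ran from 0.62 to 0.87. In pairs with a Kit-Gr1- array it ran from -0.23 to 0.21. Replicate 3 of the former fractions is of narrow signal range, so replicate number and signal range cannot be told apart here. The fit reported did not pair the samples by number, and whether the numbers pair them was not tested. The unprocessed mean signal was not used, and the normexp setting took the median signal.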
